A study of Bos taurus with 32 samples.

Results

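BHMT, CBS and AMT are 3 liver enzymes of methyl group and glycine metabolism, and they were followed here in liver biopsies of Ayrshire dairy cows around calving. All probe sets annotated to the 3 genes were taken, which gave 4 probe sets of the 24016 tested and 3 of the 9155 genes named on the array. BHMT had 2 probe sets, called the brighter and the dimmer by their mean values, and CBS and AMT had 1 each. The genes were chosen by their differences between days in these same arrays, so those differences are given for them as a description without a test. The comparisons between the diets were not used in that choice and are tested. Earlier results of these data were known when the genes were chosen.

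The cows had a high-energy diet (HIGH) or a controlled-energy diet (CON) during the 6 weeks before calving was due. Liver was biopsied on 3 days, named by their distance from calving: -8 d, counted from the day on which calving was due, then 1 d and 9 d, counted from calving itself. There were 5 HIGH arrays and 5 CON arrays at -8 d, 6 HIGH and 4 CON arrays at 1 d, and 6 of each diet at 9 d. The 32 arrays came from 12 cows, 6 on each diet, and 8 of the cows (5 HIGH and 3 CON) had arrays on all 3 days. The ages of the cows and their feed after calving are not given in the sources used here.

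BHMT (betaine-homocysteine methyltransferase) passes a methyl group from betaine, the oxidation product of choline, to homocysteine and so returns methionine. CBS (cystathionine beta-synthase) takes homocysteine the other way, joining it to serine at the entry of transsulfuration, which leads to cysteine. AMT (aminomethyltransferase) is the T protein of the mitochondrial glycine cleavage system, which breaks glycine down and hands a carbon unit to tetrahydrofolate. The liver carries much of the body's methionine and glycine turnover, and choline and methionine supply are long-standing topics in the nutrition of cows entering lactation.

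Values are log2 RMA values, a microarray scale on which 1 unit is a doubling and on which levels of different probe sets cannot be set against each other. The medians of the arrays were 5.87 to 5.935, and precision is limited by how many arrays there are. Of 10 hepatocyte markers 9 were measured, with mean values from 11.6 (FGB, fibrinogen beta chain) to 14.9 (ALB, albumin), and their summed level, which the brightest of them dominate, was 16.99 to 17.1 (log2) in every array. Single hepatocyte markers moved both ways: 3 rose and 4 fell at 1 d, and 2 rose and 2 fell at 9 d, each against -8 d. Neutrophil markers moved with the days: 4 of 5 rose at 1 d against -8 d, and their summed level ran from 9.997 to 13.1 (log2) in HIGH 1 d and from 10.1 to 11.4 in CON 1 d, against 8.96 to 9.45 in HIGH -8 d and 8.58 to 9.35 in CON -8 d. At 9 d that level was 8.86 to 10.3 in HIGH and 9.20 to 10.9 in CON. T and NK cell markers fell in 5 of 8 cases at 1 d, with a summed level of 8.78 to 9.34 in HIGH 1 d and 8.89 to 9.07 in CON 1 d, against 9.15 to 9.39 in HIGH -8 d and 8.896 to 9.40 in CON -8 d. Of 5 erythroid markers, 2 fell at 9 d against -8 d and 2 at 9 d against 1 d. Their summed level was 6.74 to 9.79 at -8 d, 6.73 to 7.71 at 1 d and 6.64 to 7.04 at 9 d in HIGH cows, and 6.85 to 9.22, 7.04 to 8.87 and 6.57 to 7.66 in CON cows. In the other 5 marker lists at most 1 marker passed in either direction between any 2 days. A control for RNA integrity moved too: the difference between the 3' and 5' probe sets of the elongation factor control was -0.684 ± 0.119 at -8 d (SD, n = 10), -1.07 ± 0.154 at 1 d (n = 10) and -0.81 ± 0.134 at 9 d (n = 12), while that of GAPDH was 0.543, 0.534 and 0.579. The part of these shifts in the results for BHMT, CBS and AMT was not tested. In a biopsy, fewer cells of a type and less RNA per cell cannot be told apart.

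By its brighter probe set, BHMT was higher after calving than before it. In HIGH cows the brighter probe set read 11.60, 11.82, 12.10, 12.14 and 12.17 at -8 d, 11.91 to 13.07 (median 12.53) at 1 d and 12.02 to 12.83 (median 12.595) at 9 d. In CON cows it read 11.43, 11.52, 11.53, 12.18 and 12.22 at -8 d, 12.33, 13.11, 13.28 and 13.40 at 1 d, and 12.34 to 12.96 (median 12.76) at 9 d. The CON arrays at -8 d lay wholly below those of the other days, while in HIGH cows the ranges of all 3 days overlapped. Averaged over the diets, the difference between 1 d and -8 d was 0.91 (log2, SE 0.14), a 1.88-fold higher value, and that between 9 d and -8 d was 0.76 (SE 0.13), or 1.69-fold. Between 9 d and 1 d the difference was -0.16 (SE 0.13). Ordered by mean, the groups ran CON at -8 d (11.78 ± 0.389, SD), HIGH at -8 d (11.97 ± 0.248), HIGH at 1 d (12.55 ± 0.395), HIGH at 9 d (12.55 ± 0.286), CON at 9 d (12.71 ± 0.249) and CON at 1 d (13.03 ± 0.482). The step between the means of HIGH at 1 d and HIGH at -8 d was the one gap between neighbours in this order that exceeded the SD of both groups. The mean of this probe set was above that of 98.4% of all probe sets, and RMA can compress changes of the brightest probe sets.

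CBS had the smallest range of the 3 genes, 8.11 to 9.13 over all arrays. In HIGH cows it read 8.18, 8.28, 8.33, 8.39 and 8.42 at -8 d, 8.25 to 9.01 (median 8.52) at 1 d and 8.72 to 9.01 (median 8.84) at 9 d. In CON cows it read 8.11, 8.44, 8.50, 8.76 and 8.81 at -8 d, 8.28, 8.71, 8.81 and 8.82 at 1 d, and 8.51 to 9.13 (median 8.855) at 9 d. All HIGH arrays at 9 d were above all HIGH arrays at -8 d, whereas the CON arrays of these days overlapped. The difference averaged over the diets was 0.19 (log2, SE 0.086) between 1 d and -8 d, 0.42 (SE 0.081) between 9 d and -8 d, and 0.23 (SE 0.082) between 9 d and 1 d. By mean the order was HIGH at -8 d (8.32 ± 0.0951, SD), CON at -8 d (8.52 ± 0.281), HIGH at 1 d (8.57 ± 0.260), CON at 1 d (8.655 ± 0.255), CON at 9 d (8.845 ± 0.229) and HIGH at 9 d (8.85 ± 0.110). No neighbours in it differed by more than the larger of their SDs.

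AMT was also higher after calving. In HIGH cows it read 6.75, 7.01, 7.22, 7.38 and 7.45 at -8 d, 7.13 to 7.92 (median 7.69) at 1 d and 7.59 to 8.14 (median 7.915) at 9 d. In CON cows it read 6.68, 6.80, 7.03, 7.06 and 7.17 at -8 d, 6.89, 7.59, 8.00 and 8.10 at 1 d, and 7.26 to 7.98 (median 7.545) at 9 d. At 9 d the arrays of each diet lay wholly above those of the same diet at -8 d. The low CON value at 1 d, 6.89, was from cow 445, whose BHMT value on that day (13.28) was among the highest. Averaged over the diets, AMT differed by 0.57 (log2, SE 0.12) between 1 d and -8 d, by 0.67 (SE 0.12) between 9 d and -8 d, and by 0.09 (SE 0.12) between 9 d and 1 d. The group means ran CON at -8 d (6.95 ± 0.201, SD), HIGH at -8 d (7.16 ± 0.286), CON at 9 d (7.57 ± 0.285), HIGH at 1 d (7.63 ± 0.294), CON at 1 d (7.645 ± 0.550) and HIGH at 9 d (7.90 ± 0.200). The gap between CON at 9 d and HIGH at -8 d was the one between neighbours that exceeded both SDs.

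**Figure D1:**
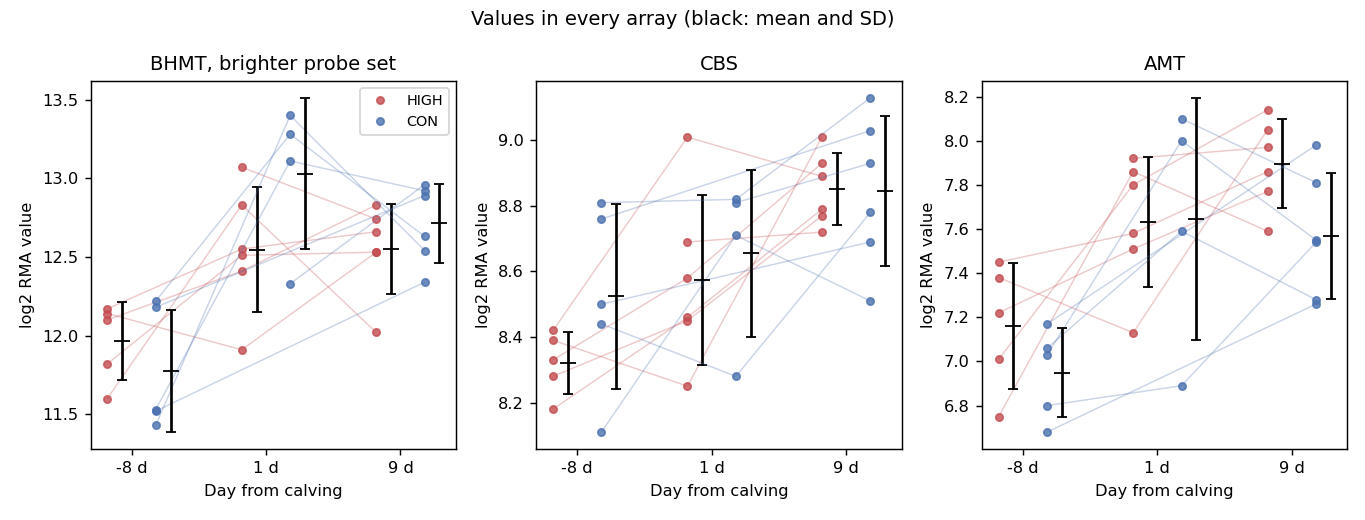
Log2 RMA values of the brighter BHMT probe set, CBS and AMT in every array by day from calving, HIGH cows left of CON cows. Thin lines join the arrays of 1 cow, and the black marks are the mean and SD of each group. BHMT in CON cows is highest at 1 d (mean 13.03), while CBS is highest at 9 d in both diets (8.85 in HIGH and 8.845 in CON).

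As background for these differences, 11.5% of all probe sets rose and 11.6% fell at 1 d against -8 d at an adjusted p under 0.05 (limma), 5.18% rose and 4.25% fell at 9 d against -8 d, and 6.11% rose and 6.99% fell at 9 d against 1 d. Groups that did not overlap, with the later day higher, were found for 2.25% of probe sets in HIGH cows at 9 d against -8 d (CBS and AMT among them). In CON cows the share was 3.24% at 1 d against -8 d (brighter BHMT among them) and 1.00% at 9 d against -8 d (brighter BHMT and AMT among them). For HIGH cows at 1 d against -8 d the share was 3.78%, and no member was among them. Since the genes were chosen for these differences, nothing is read from the counts.

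The same cow could be followed across days. BHMT stands here for its brighter probe set. The dimmer one was higher in 4 of 8 cows at 1 d and in 5 of 10 cows at 9 d, each against -8 d. From -8 d to 9 d, all 10 cows with both arrays had a higher value at 9 d for BHMT, for CBS and for AMT. The genes were chosen for differences between days, and the share of all probe sets with such a rise is not given here. Nothing is therefore read from these counts of cows. For BHMT the changes were 0.39 to 0.73 in HIGH cows and 0.41 to 1.39 in CON cows (log2). AMT changed by 0.41 to 1.13 in HIGH cows and by 0.22 to 0.81 in CON cows. The first step was less uniform: at 1 d against -8 d BHMT was higher in 7 of 8 cows, CBS in 6 of 8 and AMT in 7 of 8. The cow with the lower BHMT value at 1 d was HIGH cow 432 (a change of -0.23). In the second step, at 9 d against 1 d, BHMT was higher in 5 of 10 cows, CBS in 8 of 10 and AMT in 6 of 10. AMT was then higher in 5 of 6 HIGH cows and in 1 of 4 CON cows.

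**Figure D2:**
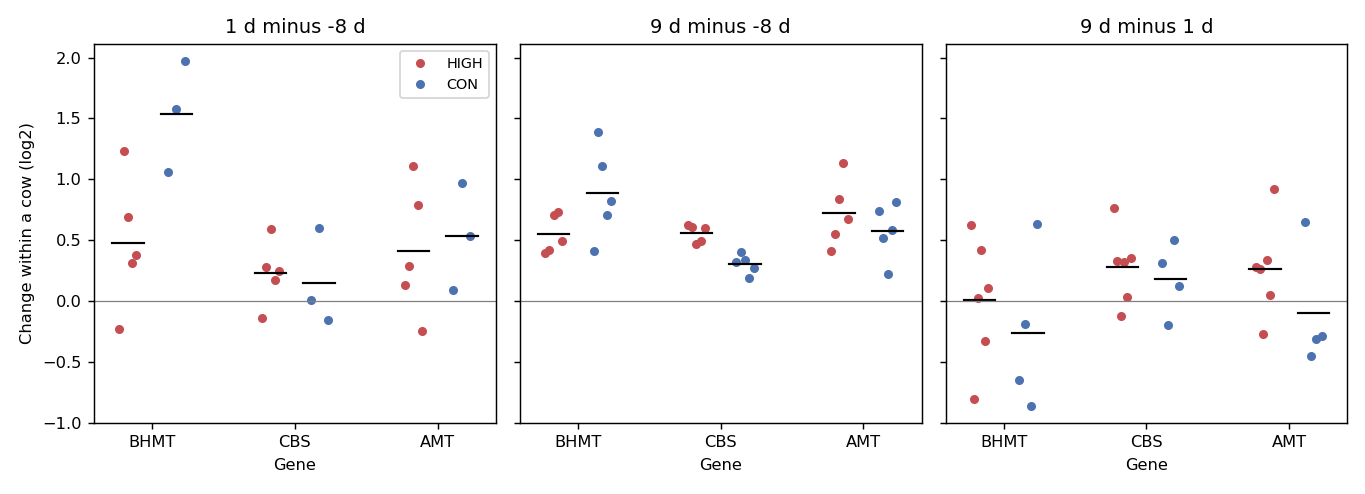
Change within each cow (log2) of the brighter BHMT probe set, CBS and AMT between pairs of days, HIGH cows left of CON cows, with black bars at the means. For 9 d minus -8 d all 10 cows are above 0 for each gene, and the CBS changes of HIGH cows (0.47 to 0.62) lie above those of CON cows (0.19 to 0.40).

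The diets were compared on each day. None of the 4 probe sets differed between HIGH and CON cows at an adjusted p under 0.05 on any day (limma, adjusted over 24016 probe sets). The background was as low: 0% of probe sets passed at -8 d, 0.00416% at 1 d (1 probe set) and 0% at 9 d, with 1025, 2013 and 813 probe sets at an unadjusted p under 0.05. The values of HIGH and CON cows overlapped on every day for all 4 probe sets. How many of all probe sets overlapped in this way is not given here, so nothing is read from it.

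For the brighter BHMT probe set the HIGH mean was above the CON mean at -8 d and below it after calving, and these differences did not pass the adjusted test. HIGH minus CON was 0.22 (log2, SE 0.21, 95% interval -0.20 to 0.64) at -8 d, -0.48 (SE 0.21, -0.91 to -0.0543) at 1 d and -0.16 (SE 0.19, -0.55 to 0.22) at 9 d. The value at 1 d had a limma p of 0.0285 before adjustment and 0.555 after it, and an exact two-sided permutation of the cows of that day gave p = 0.124. It was -0.82 in the cows with arrays on all 3 days (limma adjusted p = 0.154), and the 9 d value was -0.0553 without cow 439. At 1 d, 3 of the 4 CON arrays read above all 6 HIGH arrays. The difference in the change from -8 d to 1 d was -0.70 (SE 0.28), with a limma p of 0.0169 before and 0.619 after adjustment. In cows with both arrays the change was -0.23, 0.31, 0.38, 0.69 and 1.23 in HIGH cows and 1.06, 1.58 and 1.97 in CON cows. An exact two-sided permutation of these changes gave p = 0.0714, where the smallest p that 5 against 3 cows allow is 0.0357. In the dimmer probe set the HIGH mean was below the CON mean on all 3 days. Its difference in the change from -8 d to 1 d was 0.33 (SE 0.94) in the limma fit and -0.70 between the means within cows.

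For CBS the larger changes were in HIGH cows, over the longer interval. From -8 d to 9 d it changed by 0.47, 0.49, 0.60, 0.61 and 0.62 in HIGH cows and by 0.19, 0.27, 0.32, 0.34 and 0.40 in CON cows, with means of 0.558 ± 0.0719 and 0.304 ± 0.0789 (SD, n = 5 each). These ranges did not overlap, and the difference of 0.25 had an exact two-sided permutation p of 0.00794, the smallest that 5 against 5 cows can give. That test was added after the data were seen and is unadjusted. It is 1 of 12 on changes within cows, beside 12 on single days. Over the whole array 0.600% of probe sets had changes that did not overlap between the diets in this interval, and 0.300% had the larger changes in HIGH cows. In the limma fit over all 32 arrays, which include cows without a -8 d array, the diet-by-time difference was 0.22 (SE 0.16). Its limma adjusted p was 1.00 (0.981 to 1.00 over the alternative settings). That fit used the same cow correlation (0.138) for all probe sets, while 40.8% of the spread of CBS lay between cows after group means were removed. On single days HIGH minus CON for CBS was -0.21 (SE 0.13, 95% interval -0.47 to 0.0511) at -8 d, -0.09 (SE 0.13) at 1 d and 0.0067 (SE 0.12) at 9 d.

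For AMT, HIGH minus CON was 0.21 (log2, SE 0.18, 95% interval -0.17 to 0.58) at -8 d and -0.0123 (SE 0.19, -0.39 to 0.37) at 1 d. At 9 d it was 0.33 (SE 0.17, -0.0155 to 0.67), with means of 7.90 ± 0.200 in HIGH cows and 7.57 ± 0.285 in CON cows (SD, n = 6 each). The limma p was 0.0606 before adjustment and 0.998 after it. An exact two-sided permutation of the 12 cows gave p = 0.0498, which is unadjusted and was not among the planned tests. It is 1 of 12 such tests on single days, beside 12 on changes within cows. The diet-by-time difference of AMT at 9 d against 1 d was 0.34 (SE 0.24), with an adjusted p of 0.828 (limma). No probe set of the whole array passed for diet by time in any interval (0%), and 1723, 789 and 1629 had an unadjusted p under 0.05 for 1 d against -8 d, 9 d against -8 d and 9 d against 1 d.

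**Figure D3:**
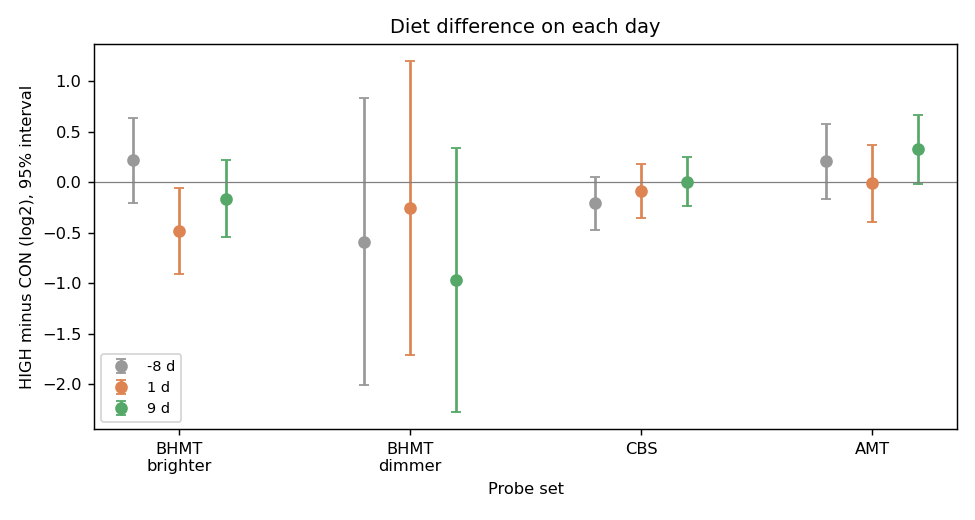
HIGH minus CON (log2) on each day for the 4 probe sets of BHMT, CBS and AMT, with 95% intervals from the limma fit. The interval of the brighter BHMT probe set at 1 d (-0.91 to -0.0543) is the one that leaves out 0 before adjustment, and the dimmer BHMT probe set has the widest intervals.

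The dimmer BHMT probe set gave another picture. In HIGH cows it read 5.24, 5.52, 5.57, 6.66 and 7.57 at -8 d, 4.35 to 9.31 (median 6.14) at 1 d and 4.69 to 7.93 (median 5.915) at 9 d. In CON cows it read 5.77, 6.58, 6.69, 7.08 and 7.84 at -8 d, 5.95, 6.11, 7.03 and 7.74 at 1 d, and 6.35 to 8.47 (median 7.10) at 9 d. No pair of groups was separate, and no neighbouring means differed by more than their SDs. The difference between days averaged over the diets was 0.08 (log2, SE 0.47) for 1 d against -8 d and 0.17 (SE 0.44) for 9 d against -8 d, and the value was higher at 9 d in 5 of 10 cows. The time course of BHMT given above therefore holds for the brighter probe set, and it was not seen in the dimmer one. The limma intervals of the dimmer one were -0.88 to 1.04 and -0.73 to 1.07. That fit used the same cow correlation (0.138) for all probe sets, although most of the dimmer one's spread lay between cows. Within cows, the dimmer one changed from -8 d to 9 d by -0.057 on average (SD 0.44, range -0.57 to 0.58, n = 10). The brighter one changed by 0.718 (SD 0.33, range 0.39 to 1.39) in the same cows. From -8 d to 1 d the mean changes were 0.0475 (SD 0.84) and 0.87 (SD 0.72, n = 8 each).

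Values of the dimmer probe set differed mostly between cows. The cow means ran from 4.89 to 8.52, and the range within a cow had a median of 0.62. HIGH cows 432, 460 and 462 had the lowest means (4.97, 5.20 and 4.89), and the other HIGH cows 439, 529 and 512 had 7.20, 7.57 and 8.52. CON cows lay between 6.08 (cow 477) and 7.61 (cow 528). The largest range within a cow was 2.52, in CON cow 510, which read 5.95 at 1 d and 8.47 at 9 d, and HIGH cows 512, 439 and 432 had ranges of 1.58, 1.46 and 1.22. For the brighter probe set the ranges within a cow were 0.33 to 1.97 (median 0.72), with cow means of 11.93 to 12.91. After the group means were removed, 74.0% of the spread of the dimmer probe set lay between cows, against a median of 16.3% over all probe sets. A larger share was found in 1.99% of probe sets. The residual SD of the dimmer probe set, 1.17, was exceeded by 0.137% of probe sets. The brighter BHMT probe set had 2.72% of its spread between cows, CBS 40.8% and AMT 20.6%, with the same median beside them. Over the 32 arrays the 2 BHMT probe sets correlated with r = 0.27, and with r = 0.35 after group means were removed. HIGH minus CON for the dimmer probe set was -0.59 (SE 0.70) at -8 d, -0.26 (SE 0.71) at 1 d and -0.97 (SE 0.64, 95% interval -2.27 to 0.33) at 9 d, with adjusted p of 1.00, 0.953 and 0.998 (limma). In the RefSeq gene table for the ARS-UCD2.0 assembly the related gene BHMT2 is the direct neighbour of BHMT, with DMGDH beyond it. No probe set named BHMT2 was among those used here, and whether either probe set also detects BHMT2 RNA was not tested.

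**Figure D4:**
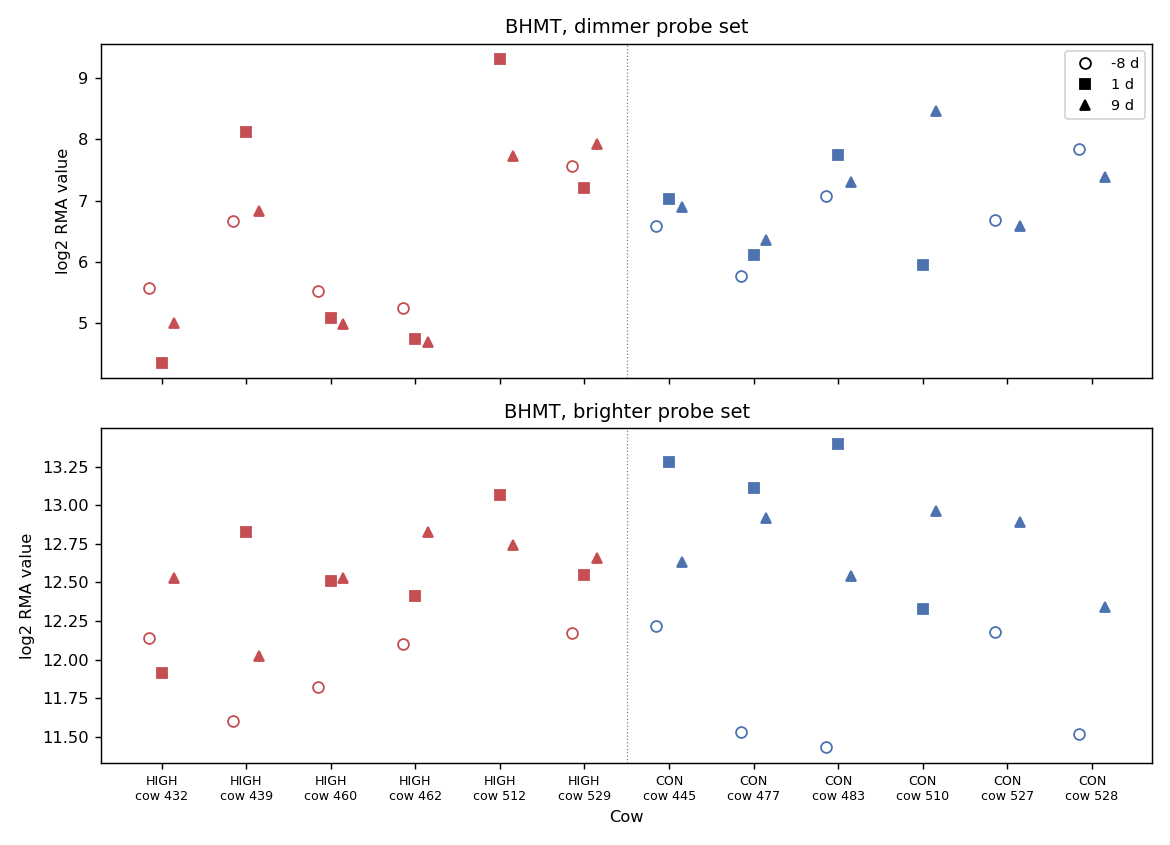
Log2 RMA values of the dimmer (top) and the brighter (bottom) BHMT probe set in each cow, HIGH cows (red) left of CON cows (blue), with 1 symbol for each day. In the dimmer probe set cow means run from 4.89 to 8.52, with ranges within a cow of 0.11 to 2.52, while in the brighter one the open circles of -8 d lie below most later points of the same cow.

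Brighter BHMT, CBS and AMT were all higher at 9 d than at -8 d, and how they ran together was described by correlation. Over the 32 arrays, which share the day effect, brighter BHMT correlated with CBS at r = 0.39 and with AMT at r = 0.43, and CBS with AMT at r = 0.44. After the 6 group means were removed these were 0.05, -0.18 and 0.12. The correlations were thus closer to 0 once the groups were set equal. The named genes whose values ran most like those of brighter BHMT over the 32 arrays were NUDT13 (r = 0.85), ECD (0.81) and RNFT1 (0.77), and after removal of group means SYNE2 (0.71), C4BPB (0.67) and RNFT1 (0.66). For CBS they were IGFBP2 (0.77), an insulin-like growth factor binding protein, CYP51A1 (0.70), an enzyme of cholesterol synthesis, and MAT1A (0.70), and after removal NME4 (0.69), NUDT4 (0.61) and NHERF2 (0.61). For AMT they were QPCTL (0.82), C16H1orf21 (0.81) and SUOX (0.81), and after removal SUOX (0.76), PIM2 (0.74) and GGH (0.74).

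Around the 3 enzymes, 7 lists of pathway genes were examined, in which 57 of 72 genes had a named probe set. At 1 d against -8 d 16 of the 57 rose and 10 fell, beside 11.5% and 11.6% of all probe sets. At 9 d against -8 d 9 rose and 4 fell, beside 5.18% and 4.25%, and at 9 d against 1 d 10 rose and 7 fell, beside 6.11% and 6.99%. The median difference of the 57 genes was 0.0041, 0.06 and 0.08 (log2), against -0.02, -0.02 and 0.00096 over all probe sets. No pathway gene passed in any diet or diet-by-time comparison. All calls here are limma calls at an adjusted p under 0.05, averaged over the diets. Each of the 57 genes stands by its brightest probe set. The shares are over all 24016 probe sets, of which 10638 had no gene symbol, so these are unlike sets. Whether the lists held more calls than like probe sets was not tested. ALDH7A1, whose probe sets disagree, is among the 16.

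In the methionine cycle (11 genes measured) 3 genes rose and 3 fell at 1 d, and 2 rose and 2 fell at 9 d, each against -8 d. GNMT, which uses S-adenosylmethionine to methylate glycine, had the largest difference among the 57 genes at 1 d, 1.43 (log2, SE 0.22, adjusted p = 1.61e-05). It averaged 6.56 ± 0.378 at -8 d, 8.59 ± 0.950 at 1 d and 7.325 ± 0.652 at 9 d in HIGH cows, and 6.40 ± 0.158, 7.23 ± 0.306 and 6.83 ± 0.358 in CON cows (SD). By 9 d it had fallen by 0.85 (SE 0.21, adjusted p = 0.00554) from 1 d, and its difference from -8 d was 0.58 (adjusted p = 0.0754), while its second probe set passed there (0.82, adjusted p = 0.0437). MAT1A, the liver enzyme that makes S-adenosylmethionine from methionine, rose at 1 d (0.31, SE 0.090) and at 9 d (0.39, SE 0.085, adjusted p = 0.00252). AHCY, which splits S-adenosylhomocysteine into homocysteine and adenosine, fell at both days (-0.24 and -0.09). PEMT, which methylates phosphatidylethanolamine to phosphatidylcholine, rose at 9 d (0.31, SE 0.075), and GAMT, which methylates guanidinoacetate to creatine, fell at 1 d (-0.59, SE 0.089). MAT2B, a regulatory subunit of methionine adenosyltransferase, fell at 9 d (-0.16), and AHCYL1, a relative of AHCY, rose at 1 d (0.16). ADK, adenosine kinase, fell at 1 d (-0.17) and is named here after its value was seen. MTR, the cobalamin-dependent methionine synthase that shares homocysteine with BHMT, did not pass at 1 d (0.27, adjusted p = 0.0862) or at 9 d (-0.18, adjusted p = 0.328), but fell between them (-0.44, adjusted p = 0.00424). Its other 2 probe sets, dimmer, read 0.02 and 0.08 for that step and did not pass.

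On the choline and betaine side, which supplies the substrate of BHMT and takes up its product dimethylglycine, 4 genes were measured. DMGDH, which oxidises dimethylglycine, did not pass at 1 d (0.11, SE 0.14) or 9 d (0.27, SE 0.13, adjusted p = 0.223). SARDH, the next enzyme, fell at 1 d (-0.30, SE 0.065, adjusted p = 0.00105) and rose again by 9 d (0.27 against 1 d). ALDH7A1, which oxidises betaine aldehyde, rose at 1 d by its brightest probe set (0.19), but its other 2 probe sets fell (-0.33 and -0.54, all 3 past the threshold), so it has no settled direction. PIPOX, an oxidase of pipecolate and sarcosine, did not pass (-0.24 at 1 d, SE 0.27).

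Beyond CBS in transsulfuration and cysteine use, 6 genes were measured, of which 3 rose and 1 fell at 1 d, and 2 rose and 0 fell at 9 d. SUOX, which oxidises sulfite at the end of cysteine breakdown, rose at 1 d (0.43, SE 0.070) and at 9 d (0.55, SE 0.066, adjusted p = 3.06e-06). GCLM, the modifier subunit of the enzyme that starts glutathione synthesis, rose at 1 d (0.57, SE 0.081) and less at 9 d (0.28, SE 0.077). ETHE1, a persulfide dioxygenase, rose at 1 d (0.33, SE 0.071) and had 0.04 at 9 d. GSS, glutathione synthetase, fell at 1 d (-0.33, SE 0.060) and is named after its value was seen. CDO1, which commits cysteine to taurine and sulfate, did not pass (0.14 at 1 d and 0.12 at 9 d).

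AMT works with partner proteins in the glycine cleavage system, and 5 genes of that list were measured. GLDC, the glycine decarboxylase that acts first, had 0.0022 (SE 0.15) at 1 d and 0.32 (SE 0.14, adjusted p = 0.154) at 9 d. GCSH, the carrier protein, did not pass by its brighter probe set (-0.02 and 0.14), and its dimmer one passed at 9 d (0.26, adjusted p = 0.0449). DLD, a dehydrogenase shared with other mitochondrial complexes, rose at 1 d (0.17, SE 0.055), as did LIAS, which makes the lipoyl group that GCSH carries (0.27, SE 0.088). LIPT1, a lipoyl transferase, did not pass (-0.07 and 0.11). By the brightest probe set of each gene, 2 of 5 rose at 1 d and 0 at 9 d.

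Among 14 folate enzymes and carriers, 2 rose and 2 fell at 1 d, and 3 rose and 1 fell at 9 d. TYMS, which makes thymidylate, rose at 1 d (0.56, SE 0.19) and had the largest rise of the 57 genes at 9 d (1.13, SE 0.18, adjusted p = 7.36e-05). Its dimmer probe set read 0.11 and 0.10 and did not pass. GGH, which trims the glutamate chain of folates, rose at 1 d (0.51, SE 0.13) and at 9 d (0.80, SE 0.13, adjusted p = 7.63e-05). SHMT2, the mitochondrial enzyme that interconverts serine and glycine, rose at 9 d (0.45, SE 0.10, adjusted p = 0.00468), and its cytosolic relative SHMT1 did not pass at 1 d (-0.12) or 9 d (0.11). ALDH1L2, a mitochondrial formyltetrahydrofolate dehydrogenase, fell at 9 d (-0.43, SE 0.13). Its cytosolic relative ALDH1L1 fell at 1 d (-0.54, SE 0.088), as did MTHFD1, a folate enzyme with several activities (-0.20, SE 0.069); both are named after their values were seen.

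Of 10 genes of serine and glycine supply and use, 2 rose and 2 fell at 1 d, and 0 rose and 1 fell at 9 d. SDS, serine dehydratase, rose at 1 d (0.72, SE 0.22) and fell by 9 d (-0.79 against 1 d). PSAT1 of serine synthesis fell at 1 d (-0.32, SE 0.086) by all 3 of its probe sets. PHGDH, the first enzyme of that route, did not pass (0.32, SE 0.14, at 1 d), and PSPH, the last, read -1.03 (SE 0.34, adjusted p = 0.0518) at 9 d. SLC25A38, a mitochondrial glycine carrier, fell at 9 d (-0.26, SE 0.065). GATM, which uses glycine for creatine, did not pass (-0.02 and 0.22), nor did GLYCTK, glycerate kinase (0.24 at 9 d). SDS, SDSL (0.16), a relative of SDS, and GLYAT (-0.18), which conjugates glycine, passed at 1 d and are named after their values were seen.

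Of 7 genes that handle cobalamin, the cofactor of MTR, 3 rose and 1 fell at 1 d, and 2 rose and 0 fell at 9 d. MMACHC, which processes incoming cobalamin, rose at 1 d (0.61, SE 0.10) and at 9 d (0.40, SE 0.096), and its second probe set passed too (0.34 and 0.30). MMAB, which makes adenosylcobalamin, rose at 9 d (0.25, SE 0.068), where its dimmer probe set did not pass (0.03). CD320, the receptor for transcobalamin, rose at 1 d by its brightest probe set (0.24, SE 0.084), while its second, nearly as bright, did not pass (0.15, adjusted p = 0.143), nor did its dimmest (-0.05). Named after their values were seen, MMADHC, a cobalamin carrier protein, rose at 1 d (0.12) and MMUT, the methylmalonyl-CoA mutase, fell (-0.30, SE 0.048).

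**Figure D5:**
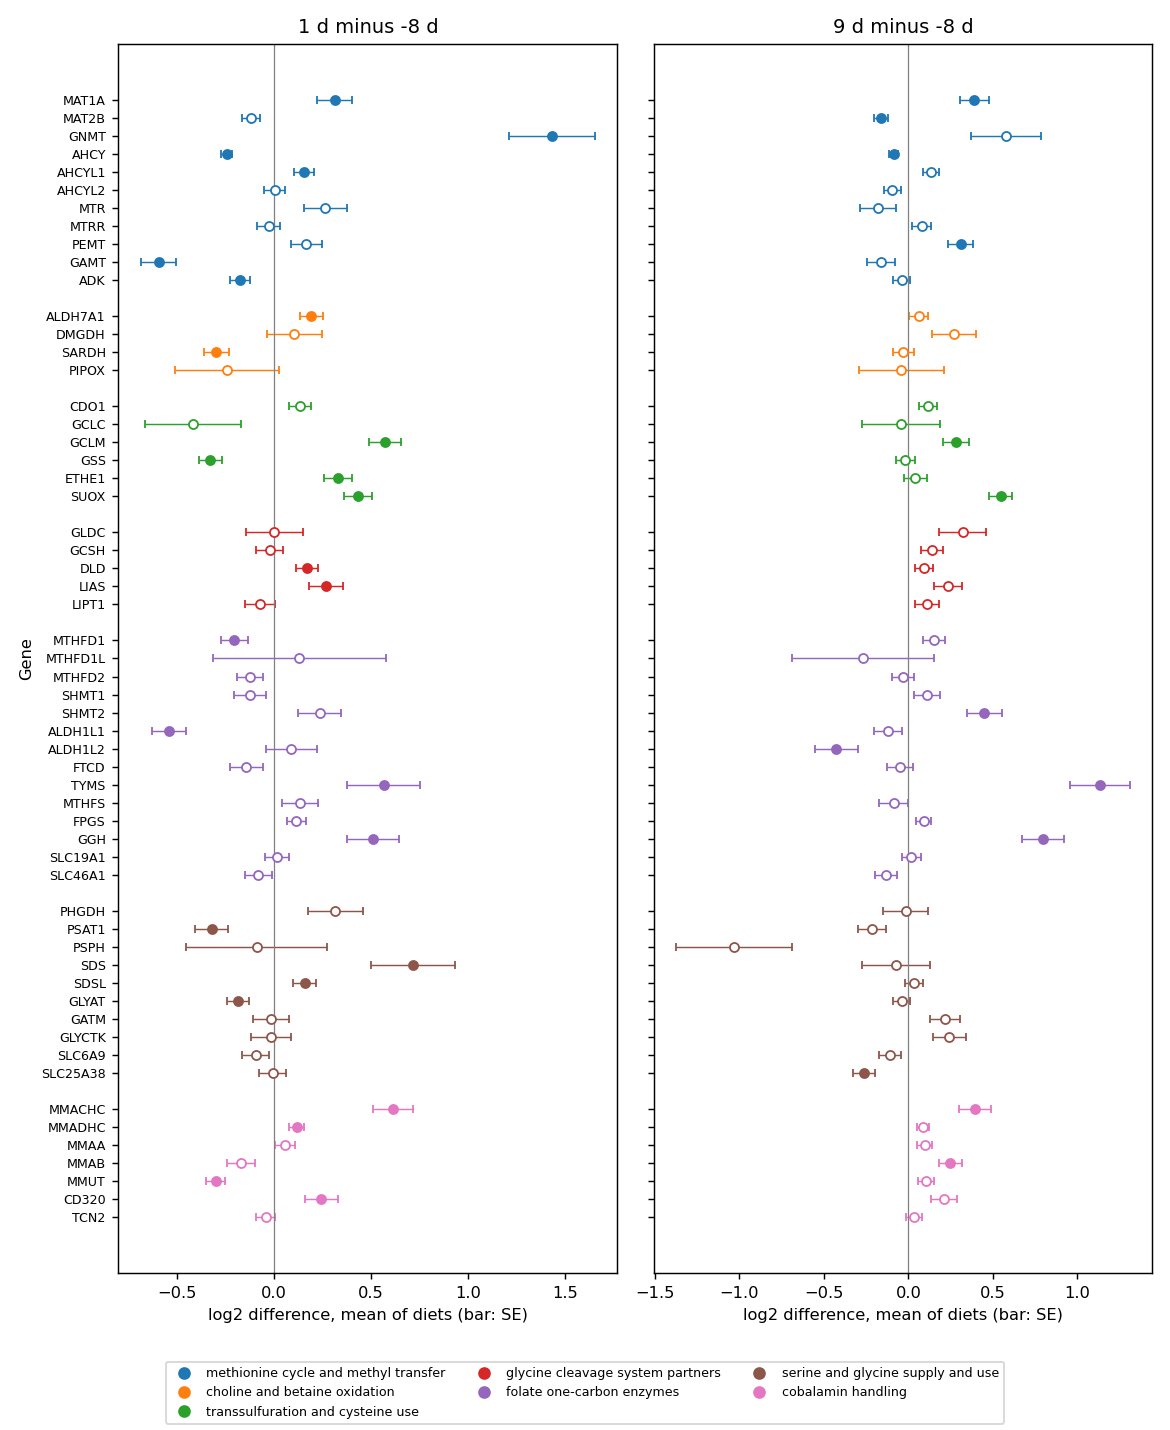
Difference against -8 d (log2, averaged over the diets, bar: SE) at 1 d (left) and 9 d (right) for the 57 pathway genes, coloured by list, each by its brightest probe set. Filled points passed an adjusted p under 0.05 (limma), which were 26 genes at 1 d and 13 at 9 d; GNMT lies farthest to the right at 1 d (1.43) and TYMS at 9 d (1.13).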

How the data were processed

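Liver RNA was hybridised to Affymetrix bovine arrays. The deposited log2 values were made by the authors with Affymetrix Expression Console 1.1 and RMA, per the submitters' processing notes; RMA settings and a genome build are not given in the sources used here. RMA draws arrays to a common distribution, so a difference is one against most other probe sets. The table held 24128 probe sets, of which 112 controls were dropped and 24016 tested. Through the array annotation 13292 carried 1 gene symbol (9155 genes), 86 several and 10638 none. A gene is its probe set with the highest mean.

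limma 3.58.1 (R 4.3.3) fitted a mean for each of 6 groups, treated cow as a random block (correlation 0.138), eBayes with trend, two-sided, with Benjamini-Hochberg adjustment over all probe sets per contrast (threshold 0.05); it was tested on simulated data. Exact permutation tests, which were not among the planned tests and are unadjusted, used SciPy 1.17.1. Groups follow the labels' diet, day and cow number. Arrays of the same cow correlated after group means were removed (mean r = 0.323, 28 pairs), those sharing only a title number did not (-0.0132, 57 pairs), so the cow number pairs arrays. The design text gives more cows than the 12 labelled; the rest are not analysed here. Cows are the replicates.

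BHMT, CBS and AMT, the pathway and marker lists and the settings were chosen with earlier results of these data known. Named are the 3 genes, 20 preset partners where measured, up to 3 further genes per list with the smallest p at 9 d against -8 d, and the 3 genes most like each member. BHMT2, CHDH and CTH are not reported here for want of a named probe set. Alternatives changed the block, the cows, the filter, the trend, the weights, the centring and the probe set.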

Additional observations from a re-analysis of the deposited data

Results flagged for a closer look

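Of 24 groups of a probe set's arrays tested for a lone array, 1 held one: in HIGH 9 d the lowest brighter BHMT value, 12.02 in cow 439, stood apart from the other 5 arrays (12.53 to 12.83). Its gap was 0.63 of the group's range, just above the critical value of 0.625 for 6 arrays. Chance alone gives such an array in about 1 of 20 groups, so 1 in 24 is close to that.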

How the results depend on the processing

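No member passed for diet or diet by time with limma in any alternative. With no replicate block or a replicate block by title number, no limma call on a member changed; cow as a fixed replicate block could be run for diet by time but not for diet, since each cow had 1 diet, and changed none there. Values near 0 turned sign in places: the CBS diet difference at 9 d was -0.0289 with array weights, and AMT at 1 d was 0.0827 in cows with all 3 days. Dimmer BHMT turned sign from larger values with wide SEs. Its diet by time at 1 d was 0.33 (SE 0.94) in the main fit. It was -0.00996 with cow as a fixed block and -0.70 in cows with all 3 days and within cows. For 9 d against 1 d it was -0.71 (SE 0.90) in the main fit and 0.10 in cows with all 3 days. Leaving out each cow gave -0.83 to 0.17 (dimmer BHMT, diet at 1 d), -0.0603 to 0.0637 (CBS, 9 d), -0.26 to 0.13 (AMT, 1 d), -0.13 to 0.61 (dimmer BHMT, diet by time at 1 d) and -0.0017 to 0.21 (CBS, 9 d against 1 d). The BHMT time course was 0.0838 and 0.17 with the other probe set. Pathway genes that rose at 1 d were 8 (against 16) in cows with all 3 days; those that rose at 9 d were 14 (against 9) with array weights. Those that fell at 9 d were 2 (against 4) with the title-number block and in cows with all 3 days, and 2 to 6 without single cows (2 without cow 439 or 528); those that fell at 9 d against 1 d were 4 (against 7) in cows with all 3 days, a setting with fewer arrays. For the other settings the cause was not tested.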
